A study of Mus musculus with 8 samples.

Results

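Fibro-adipogenic progenitors are the mesenchymal stromal cells of skeletal muscle, and together with the fibroblasts they give rise to they make most of its connective tissue matrix. Levels of 34 genes of these cells were read in 8 RNA sequencing libraries of ischemic tibialis anterior muscle, a muscle on the front of the shin. The 34 genes were taken from a list of genes that mark these cells or encode their matrix other than the collagens. Genes entered the list by their known role in these cells, and the list was drawn up with earlier results of these data known. All 34 had a row among the 24848 genes of the tables, and all 34 were among the 13569 genes with enough reads to test.

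The libraries came from male Leprdb/db mice, an obese and diabetic strain mutant for the receptor of leptin, after hind limb ischemia surgery. In the praliciguat group, 4 libraries, the mice ate a diet with 75 ppm praliciguat, a stimulator of soluble guanylate cyclase, set to match the peak plasma level of 10 mg/kg/day by mouth. In the placebo group, 4 libraries, they ate a control diet without it. Both diets began on day -3 relative to surgery and lasted 31 days, and muscle was taken 28 days after surgery. Both groups thus share the genotype, the sex and the surgery, and neither unoperated muscle nor muscle of lean mice was analysed here. Their age is not stated in the labels. Whether every library is from an animal of its own is left unsaid in the labels. The p-values therefore set the group difference against the spread between libraries of a group, whether that spread is by animal or by technique.

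Fibro-adipogenic progenitors carry the receptor PDGFRA on their surface, rest between the fibres in healthy muscle, and divide after injury. Depending on the signals they receive, they support regeneration by the muscle stem cells, lay down scar matrix or turn into fat cells, and macrophages remove many of them as repair proceeds. Their matrix has 3 main parts beside collagen, namely small leucine-rich proteoglycans that coat collagen fibrils, elastic fibres with their microfibrils, and adhesive or matricellular proteins that tie cells to the matrix.

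Total expected counts, the read counts per gene that the authors estimated, ran from 27271020 to 31896205 in praliciguat libraries and from 21099764 to 29635817 in placebo libraries. Genes of the muscle fibre itself, the check of the labelled tissue, summed to 217529 to 237664 TPM in praliciguat and 212572 to 228595 TPM in placebo over 12 genes such as Acta1 and Ckm. The 34 fibroblast genes together summed to 2381, 1508, 5878 and 3082 TPM (a transcript level corrected for gene length and library size) in praliciguat replicates 1 to 4, against 2834, 2362, 3607 and 2452 TPM in placebo replicates 1 to 4. Praliciguat replicate 3 was the highest of the 8 libraries and praliciguat replicate 2 the lowest, and the placebo libraries lay between them. The mean was 3212 ± 1890 TPM in praliciguat and 2814 ± 567 TPM in placebo (SD, n = 4 each). The highest library exceeded the lowest by 3.90-fold within praliciguat and by 1.53-fold within placebo. These sums were 0.151% to 0.588% of all TPM. In RNA from whole muscle, fewer cells of a type and less RNA per cell cannot be told apart.

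No fibroblast gene passed the test between praliciguat and placebo muscle. With edgeR's quasi-likelihood test and an adjusted p under 0.05, 0 of 34 were higher and 0 of 34 were lower in praliciguat, and the share of all 13569 genes called was 0% in each direction. At an unadjusted p under 0.05, edgeR marked 0 of 34, against 5.73% of all genes. DESeq2 called 0 of 34, against 0.111% of all genes higher and 0.84% lower, and marked 0 of 34 at an unadjusted p under 0.05, against 6.35%. The limma-voom fit called 0 of 34, against 0.0147% of all genes, and marked 0 of 34 at an unadjusted p under 0.05, against 6.05%. The groups overlapped in CPM (counts scaled by library size with TMM) for all 34, whereas 1.32% of all genes lay wholly higher and 2.54% wholly lower in praliciguat, 3.86% together. The smallest adjusted p that edgeR gave among the 34, for Ccdc80, was 0.961. These tests do not show that the levels were alike, because the 95% intervals of the log2 fold changes reached from 0.334 (Smoc2) to 2.48 (Cilp) on either side of the estimate, with a median of 0.881.

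The sign of the difference depended on how the libraries were averaged. Log2 fold changes from edgeR, praliciguat over placebo, ran from -0.38 for Twist2 to 0.92 for Ccdc80, with a median of 0.12 against 0.020 over all genes, and 10 of 34 were below 0 against 44.8% of all genes. The log2 ratio of the mean CPM also gave 10 of 34 below 0, with a median of 0.12. The difference of the mean log2 CPM, in which 1 high library weighs less, gave 24 of 34 below 0, with a median of -0.094 against 0.0089 over all genes. Without praliciguat replicate 3, edgeR's count below 0 was 30 of 34 and the median -0.33. Without praliciguat replicate 2 it was 4 of 34 and the median 0.39, and without praliciguat replicate 1 it was 6 of 34 and the median 0.27. The difference in summed TPM was 398 with all 8 libraries, -490.3 without praliciguat replicate 3 and 966.5 without praliciguat replicate 2, in each case praliciguat minus placebo. With all 8 libraries, the sign for the 34 genes thus depended on the average used. Praliciguat replicate 3 was the highest library for 33 of 34 and praliciguat replicate 2 the lowest for 27 of 34. Leaving either of them out was thus bound to shift the values, and no conclusion is drawn from those fits.

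What the fibroblast genes shared was a wide spread within the praliciguat group. The SD of log2 CPM was larger over the 4 praliciguat libraries than over the 4 placebo libraries for 34 of 34, against 65% of all genes. Its median was 0.865 in praliciguat and 0.270 in placebo, against 0.240 and 0.199 over all genes. The ratio of the 2 SDs ran from 1.24 for Ccdc80 to 9.38 for Fbn1, with a median of 3.09. Without praliciguat replicate 3 the SD was larger in praliciguat for 31 of 34, against 52.5% of all genes, and its median was 0.581. Without praliciguat replicate 2 it was larger for 33 of 34, and without any one of the other 6 libraries for 34 of 34. The wide spread was not particular to the fibroblast genes. The SD was also larger in praliciguat for 7 of 7 tendon cell genes, with medians of 1.89 in praliciguat and 0.440 in placebo. For macrophage genes it was larger for 11 of 11 tested, with medians of 1.40 and 0.614. For genes of fat cell differentiation it was larger for 4 of 10. The 34 counts come from the same 8 libraries and are not independent of one another, and the difference in spread was not tested.

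**Figure D1:**
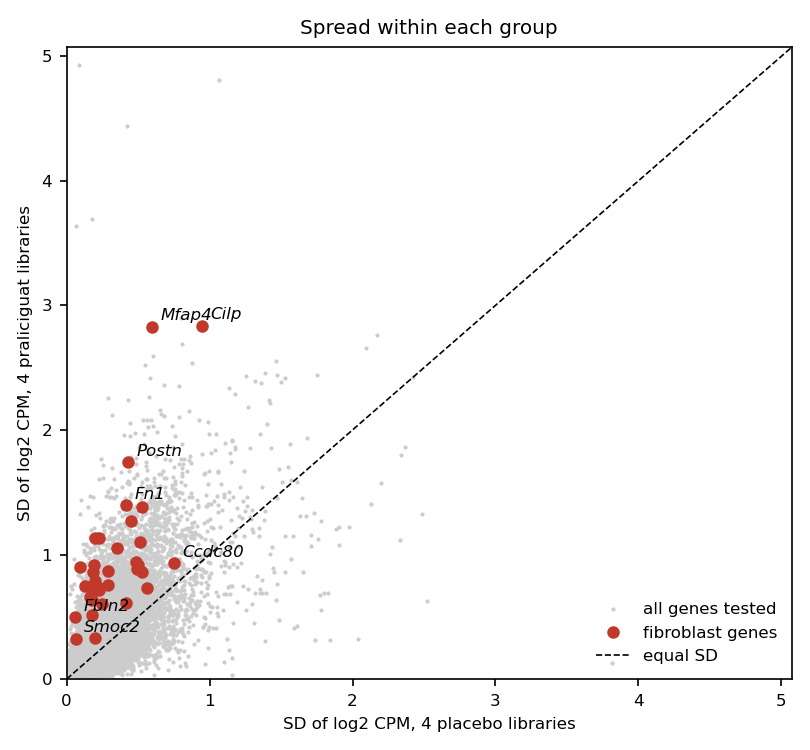
Each point is a gene, placed by the SD of its log2 CPM over the 4 placebo libraries (horizontal axis) and over the 4 praliciguat libraries (vertical axis), with all 13569 tested genes in grey and the 34 fibroblast genes in red. All 34 red points lie above the dashed line of equal SD, and Cilp and Mfap4 lie highest.

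The 34 genes largely ranked the libraries the same way. Praliciguat replicate 3 was the highest of the 8 libraries for 33 of 34, against 22.2% of all genes, the exception being Smoc2, which was highest in praliciguat replicate 1. Praliciguat replicate 2 was the lowest for 27 of 34, against 15.1% of all genes, and praliciguat replicate 1 or 2 was the lowest for 30 of 34, against 29.1%. For 31 of 34, praliciguat replicate 2 lay below and praliciguat replicate 3 above all 4 placebo libraries, against 11.4% of all genes. Praliciguat replicates 2 and 3 were singled out as the extremes for these 34 genes. The contrast with all genes is thus partly built in, and it was not tested. Praliciguat replicates 1 and 2 both lay below all placebo libraries for 17 of 34, against 14.2%. Praliciguat replicate 4 lay within the placebo range for 17, against 54.5% of all genes. It lay above that range for 8, against 22.5%, and below it for 9, against 23%, all near the shares over all genes. The count for praliciguat replicate 3 was 33 and that for praliciguat replicate 2 was 27 also in TPM, against 27.5% and 21.7% of all genes, and with DESeq2's size factors, against 22.4% and 14.7%.

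Relative to the placebo mean, the median log2 difference over the 34 genes was -0.27, -0.97, 0.90 and 0.15 in praliciguat replicates 1 to 4, against 0.11, -0.15, 0.22 and -0.22 in placebo replicates 1 to 4. Among the placebo libraries, replicate 3 was the highest for 21 of 34 and replicate 4 the lowest for 19 of 34, against 29.1% and 27.1% of all genes. The placebo libraries thus differed among themselves by less than the praliciguat libraries did, as the heat map by library shows.

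**Figure D2:**
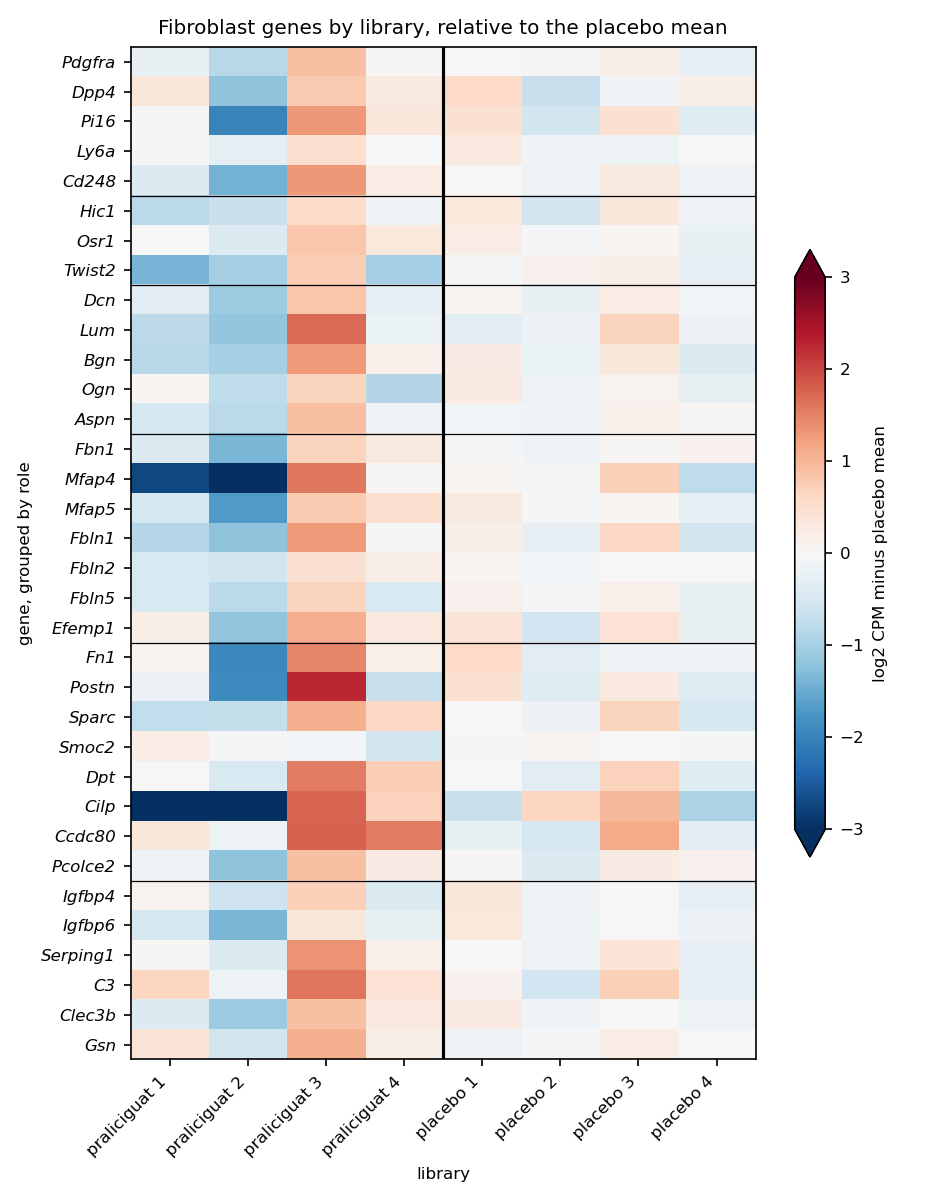
Rows are the 34 fibroblast genes, grouped by role with thin lines between groups, and columns are the 4 praliciguat and 4 placebo libraries. Colour is log2 CPM, here without a prior count, minus the mean of the 4 placebo libraries. It is red above that mean and blue below it, and the scale is capped at both ends. The praliciguat replicate 3 column is red in all rows but that of Smoc2 and the praliciguat replicate 2 column is blue in most, whereas the placebo columns are pale.

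Promoter sequences were available for 22 of the 34 genes, 28 promoters in all, from RefSeq on GRCm38.p6. The 250 bases before the start of transcription are printed for 4 of them, 5′ to 3′ on the gene's strand. For Pdgfra the start used lies inside the gene, whose annotated span begins at base 75151322 of chromosome 5. Pdgfra is shown because it encodes the receptor that defines these cells, Cilp because it had the largest SD of log2 CPM among the praliciguat libraries, and Ogn and Aspn because they encode related proteoglycans from neighbouring genes. Capitals mark matches to the TATA box (TATAAA), the CCAAT box (CCAAT), the GC box (GGGCGG), the AP-1 site (TGANTCA) or the M-CAT element bound by TEAD factors (CATTCC), each searched on both strands.
Pdgfra, chr5:75152001-75152250, plus strand: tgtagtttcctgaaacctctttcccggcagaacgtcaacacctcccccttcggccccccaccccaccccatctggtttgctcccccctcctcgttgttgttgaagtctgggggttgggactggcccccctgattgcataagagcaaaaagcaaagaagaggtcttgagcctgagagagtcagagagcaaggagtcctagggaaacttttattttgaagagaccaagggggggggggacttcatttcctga
Ogn, chr13:49607765-49608014, plus strand: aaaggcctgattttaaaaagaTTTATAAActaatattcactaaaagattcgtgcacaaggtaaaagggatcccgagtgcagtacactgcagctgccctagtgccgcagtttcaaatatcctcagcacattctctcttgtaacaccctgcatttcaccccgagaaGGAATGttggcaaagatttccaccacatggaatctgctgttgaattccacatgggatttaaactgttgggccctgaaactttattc
Aspn, chr13:49544193-49544442, plus strand: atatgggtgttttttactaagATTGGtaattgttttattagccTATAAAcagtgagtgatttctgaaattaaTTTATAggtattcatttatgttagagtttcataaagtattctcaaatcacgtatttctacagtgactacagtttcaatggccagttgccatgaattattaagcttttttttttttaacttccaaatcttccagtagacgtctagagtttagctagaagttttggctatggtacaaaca
Cilp, chr9:65264930-65265179, plus strand: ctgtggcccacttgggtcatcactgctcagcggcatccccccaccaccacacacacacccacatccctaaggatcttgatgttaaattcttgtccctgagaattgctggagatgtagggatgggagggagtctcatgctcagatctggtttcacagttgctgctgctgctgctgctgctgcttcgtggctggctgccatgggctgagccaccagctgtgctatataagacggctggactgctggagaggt
The Ogn window held TATA box letters on the opposite strand 229 bases before the start, which overlap those on the gene's strand at 227 bases, and M-CAT letters on the opposite strand at 86 bases. The Aspn window held TATA box letters at 207 bases and, on the opposite strand, at 178 bases, with CCAAT box letters on the opposite strand at 229 bases. None of these letters were in the Pdgfra and Cilp windows. Only exact letters were searched, and the similar letters tatataa near the 3′ end of the Cilp window, close to the start, were not counted. TATA box letters were in 21.4% of the 28 promoters and in 12.4% of all 32851 promoters, and CCAAT box letters in 28.6% and 33.8%. GC box letters were in 46.4% and 32.7%, AP-1 letters in 3.57% and 6.75%, and M-CAT letters in 7.14% and 12.6%. A match describes the letters and does not show that a factor binds there.

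Of the surface proteins, Pdgfra, the receptor for platelet-derived growth factor that defines the cells, had 22.6, 14.7, 48.8 and 26.6 CPM in praliciguat replicates 1 to 4, against 26.5, 26.6, 30.1 and 22.02 CPM in placebo replicates 1 to 4. Praliciguat replicate 3 lay above and replicate 2 below all placebo libraries, and the groups overlapped. Its log2 fold change was 0.10 ± 0.32 (SE, 95% interval -0.62 to 0.83, edgeR adjusted p = 0.995). Pi16, a peptidase inhibitor of a fibroblast population found around vessels and in fascia, had 47.7, 12.2, 119.8 and 61.5 CPM in the 4 praliciguat libraries and 66.7, 33.4, 67.3 and 38.3 CPM in the 4 placebo libraries. It varied 9.78-fold within praliciguat and 2.01-fold within placebo. Cd248, or endosialin, a stromal surface glycoprotein, had 13.7, 6.80, 44.6 and 21.3 CPM in the 4 praliciguat libraries and 18.4, 16.5, 22.1 and 16.4 CPM in the 4 placebo libraries. Its placebo libraries lay close together, and praliciguat replicates 1 and 2 were below them and replicates 3 and 4 were not.

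Dpp4, the dipeptidyl peptidase that marks the same fascial population as Pi16, was the least abundant of the 34 at a mean of 2.37 TPM over the 8 libraries and had 7.77, 2.60, 10.3 and 7.24 CPM in the 4 praliciguat libraries and 9.09, 3.77, 5.66 and 6.93 CPM in the 4 placebo libraries. Ly6a, or Sca-1, the surface antigen used to sort these cells in mice but present on endothelial cells too, had 43.2, 36.5, 62.998 and 44.8 CPM in the 4 praliciguat libraries and 54.3, 41.4, 39.9 and 44.2 CPM in the 4 placebo libraries. Its 1.73-fold range within praliciguat was, beside that of Smoc2, the narrowest of the 34. All 5 surface genes were highest in praliciguat replicate 3 and lowest in praliciguat replicate 2. Their edgeR log2 fold changes were all above 0, between 0.061 and 0.24, with standard errors of 0.17 to 0.57, and 0 of 5 passed the test.

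The 3 transcription factor genes were low, with a sum of 6.94 to 19.7 TPM in praliciguat and 9.80 to 13.7 TPM in placebo. Hic1, which holds mesenchymal progenitors in quiescence, had 3.84, 4.24, 9.85 and 6.18 CPM in the 4 praliciguat libraries and 8.37, 4.56, 8.41 and 6.24 CPM in the 4 placebo libraries. Osr1, which marks progenitors in developing and injured muscle, had 4.86, 3.65, 8.60 and 6.03 CPM in the 4 praliciguat libraries and 5.61, 4.62, 5.08 and 4.17 CPM in the 4 placebo libraries. Twist2, a basic helix-loop-helix factor of mesenchymal cells, had 0.706, 0.933, 3.12 and 0.923 CPM in praliciguat replicates 1 to 4, against 1.78, 2.02, 2.13 and 1.56 CPM in placebo replicates 1 to 4. Praliciguat replicates 1, 2 and 4 were below every placebo library for Twist2 and replicate 3 was above every one. Its log2 fold change of -0.38 ± 0.46 (95% interval -1.42 to 0.65) was the lowest of the 34, and without praliciguat replicate 3 it was -1.13. In the GENCODE M21 annotation, 46.5% of the exonic bases of Twist2 are overlapped on the other strand by Gm29100, and without a stated strand setting reads of the pair cannot be told apart.

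Among the small leucine-rich proteoglycans, Dcn, or decorin, which binds collagen fibrils and TGF-β, was the most abundant, at 454 ± 287 TPM in praliciguat and 475 ± 79.4 TPM in placebo (mean ± SD, n = 4 each). In CPM it had 347, 210.3, 786 and 366 CPM in praliciguat replicates 1 to 4, against 467, 375, 511 and 414 CPM in placebo replicates 1 to 4. Praliciguat replicates 1, 2 and 4 were below all placebo libraries and replicate 3 was above them, so that the log2 fold change was -0.048 ± 0.35 with all libraries and -0.52 without praliciguat replicate 3. Lum, or lumican, which regulates fibril width and whose gene lies 46985 bases from Dcn on chromosome 10, had 21.3, 16.5, 119.6 and 32.01 CPM in the 4 praliciguat libraries and 29.4, 32.4, 58.6 and 32.8 CPM in the 4 placebo libraries. In both groups replicate 3 stood well above the other 3 libraries. Bgn, or biglycan, had 73.2, 65.5, 319.6 and 145 CPM in the 4 praliciguat libraries and 156, 115, 166 and 99.3 CPM in the 4 placebo libraries, with praliciguat replicates 1 and 2 below and replicate 3 above the placebo libraries.

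Ogn, or osteoglycin, and Aspn, or asporin, lie 40481 bases apart on chromosome 13, both inside the gene Cenpp on the other strand. Ogn had 52.4, 29.7, 79.8 and 27.1 CPM in the 4 praliciguat libraries and 60.5, 44.8, 53.5 and 42.99 CPM in the 4 placebo libraries, and the highest was praliciguat replicate 3 and the lowest praliciguat replicate 4. Aspn had 27.1, 22.4, 73.1 and 35.2 CPM in the 4 praliciguat libraries and 37.4, 36.001, 43.8 and 40.4 CPM in the 4 placebo libraries. Its placebo libraries spanned 1.22-fold and its praliciguat libraries 3.27-fold, and as for Dcn 3 of the 4 praliciguat libraries were below all placebo libraries. The log2 fold changes of the 5 proteoglycans ran from -0.094 for Ogn to 0.31 for Lum, 3 above and 2 below 0, and 0 of 5 passed the test.

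Genes of the elastic fibre and its microfibrils held the widest range. Mfap4, a glycoprotein of elastic fibre microfibrils, had 2.39, 0.505, 47.4 and 16.2 CPM in praliciguat replicates 1 to 4, against 16.9, 15.2, 26.04 and 9.43 CPM in placebo replicates 1 to 4. These were 61, 13, 1625 and 456 expected counts in praliciguat and 380, 445, 759 and 260 in placebo, so praliciguat replicate 2 rests on few reads. Praliciguat replicates 1 and 2 lay below all placebo libraries, replicate 3 above them and replicate 4 among them, a 93.8-fold range within praliciguat against 2.76-fold within placebo. Its log2 fold change was -0.017 ± 1.003 (95% interval -2.30 to 2.27). By SD of log2 CPM over the praliciguat libraries, Mfap4 ranked 8th of 13569 genes and Cilp 7th. Exons of Mapk7 on the other strand overlap 4.63% of its exonic bases.

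Fbn1, or fibrillin-1, the main microfibril protein, had 53.6, 27.99, 116 and 88.1 CPM in the 4 praliciguat libraries and 70.4, 67.5, 74.004 and 78.8 CPM in the 4 placebo libraries. The placebo libraries of Fbn1 lay within 1.17-fold of each other and those of praliciguat within 4.14-fold; Gm9913 overlaps 20.1% of its exonic bases on the other strand. Mfap5, another microfibril glycoprotein, had 20.8, 9.17, 51.9 and 42.6 CPM in the 4 praliciguat libraries and 35.99, 28.8, 31.3 and 24.7 CPM in the 4 placebo libraries, with praliciguat replicates 3 and 4 above and replicates 1 and 2 below the placebo libraries. Fbln2, or fibulin-2, showed the same split at a smaller size, with 68.5, 64.2, 130.3 and 109 CPM in the 4 praliciguat libraries and 98.4, 88.96, 95.6 and 94.6 CPM in the 4 placebo libraries. Fbln1, Fbln5 and Efemp1, the other fibulins, ranged 5.62-fold, 2.74-fold and 4.85-fold within praliciguat and 2.28-fold, 1.30-fold and 2.01-fold within placebo. All 7 genes of this role were highest in praliciguat replicate 3 and lowest in praliciguat replicate 2, their log2 fold changes ran from -0.15 for Fbln5 to 0.25 for Efemp1, and 0 of 7 passed the test.

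**Figure D3:**
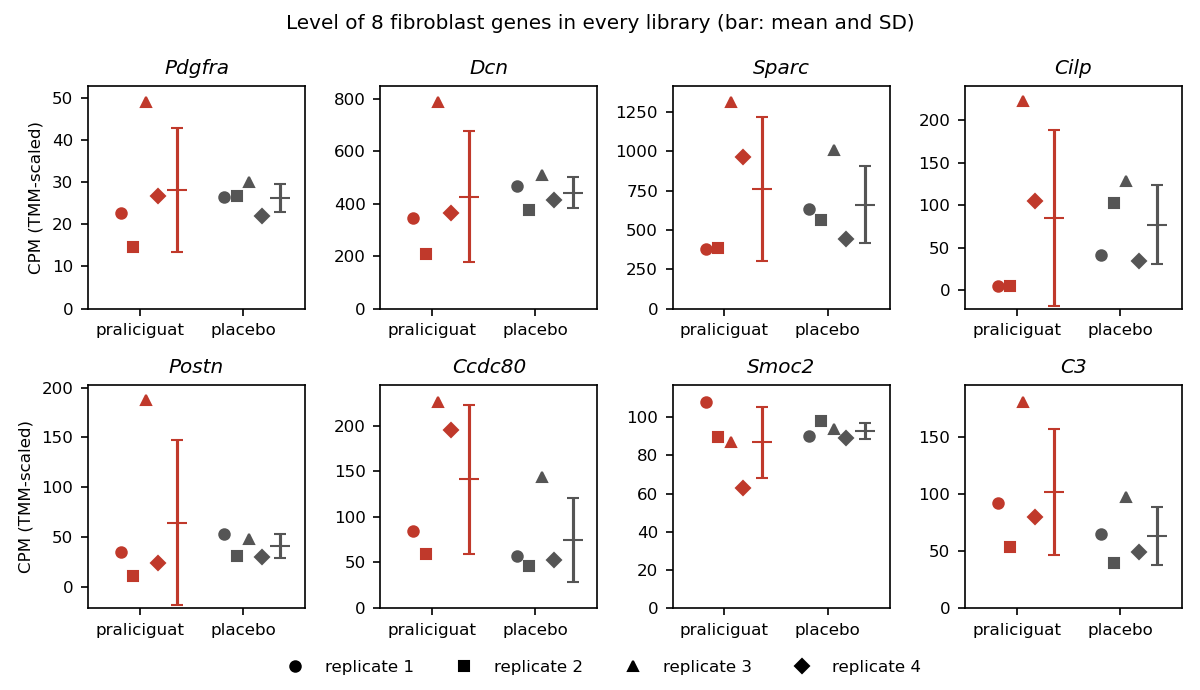
Each panel shows the TMM-scaled CPM (vertical axis, own scale per panel) of 1 gene in the 4 praliciguat libraries (red) and the 4 placebo libraries (grey), with marker shape giving the replicate and a bar the mean and SD. Praliciguat replicate 3, the triangle, is the highest in 7 of the panels, and in the Smoc2 panel praliciguat replicate 1 is.

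The adhesive and matricellular genes ranged from the steadiest of the 34, Smoc2, to one of the most variable, Cilp. Sparc, a collagen-binding glycoprotein, had 377, 385, 1309.7 and 963 CPM in praliciguat replicates 1 to 4, against 636, 560.2, 1006 and 441 CPM in placebo replicates 1 to 4. Praliciguat replicates 1 and 2 were below every placebo library, replicate 3 was above, and replicate 4 was within the placebo range. Fn1, or fibronectin, had 115, 28.5, 299 and 121 CPM in the 4 praliciguat libraries and 165, 85.2, 99.4 and 98.6 CPM in the 4 placebo libraries, so that 1 praliciguat library was above and 1 below all placebo libraries. Postn, or periostin, made by activated fibroblasts after injury, had 34.8, 10.5, 187 and 24.2 CPM in praliciguat replicates 1 to 4, against 53.5, 30.5, 48.03 and 30.2 CPM in placebo replicates 1 to 4. Only praliciguat replicate 3 exceeded the placebo libraries for Postn, and its log2 fold change of 0.67 ± 0.78 was -0.81 without that library.

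Cilp, a matrix protein that binds TGF-β, had 5.49, 4.98, 223 and 106 CPM in praliciguat replicates 1 to 4, against 41.5, 103, 129 and 34.2 CPM in placebo replicates 1 to 4. Praliciguat replicates 1 and 2 lay below every placebo library, replicate 3 above every one, and replicate 4 between placebo replicates 2 and 3. The range was 44.7-fold within praliciguat and 3.77-fold within placebo, the widest of the 34 but for Mfap4 within praliciguat and the widest of all 34 within placebo. The log2 fold change was 0.14 ± 1.09 (95% interval -2.34 to 2.61). Ccdc80, a secreted protein linked to fat cell differentiation, had 83.96, 59.4, 226 and 195 CPM in praliciguat replicates 1 to 4, against 56.6, 45.97, 144 and 52.2 CPM in placebo replicates 1 to 4. All 4 praliciguat libraries were above placebo replicates 1, 2 and 4, and only placebo replicate 3 lay among them. Its log2 fold change of 0.92 ± 0.51 (SE, 95% interval -0.25 to 2.08, edgeR adjusted p = 0.961) was the highest of the 34 and did not pass. Without placebo replicate 3 it was 1.44 (edgeR adjusted p = 0.548).

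Smoc2, a matricellular protein of the SPARC family, was the exception among the 34, with 108, 89.9, 87.2 and 62.9 CPM in praliciguat replicates 1 to 4, against 90.4, 98.2, 93.9 and 88.99 CPM in placebo replicates 1 to 4. Its placebo libraries spanned only 1.10-fold and its praliciguat libraries 1.72-fold, and praliciguat replicate 1 was the highest and replicate 4 the lowest of all 8. The log2 fold change was -0.094 ± 0.15 (95% interval -0.43 to 0.24), the narrowest interval of the 34. Dpt, or dermatopontin, which binds decorin, had 59.2, 43.1, 175 and 98.8 CPM in the 4 praliciguat libraries and 58.8, 47.9, 96.96 and 46.3 CPM in the 4 placebo libraries. Pcolce2, which enhances the processing of procollagen, had 9.02, 4.20, 17.96 and 11.5 CPM in the 4 praliciguat libraries and 9.89, 7.19, 11.5 and 10.6 CPM in the 4 placebo libraries. Of the 8 genes of this role 7 had log2 fold changes above 0, and 0 of 8 passed the test.

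Of the secreted binding proteins and complement factors, Gsn, or gelsolin, which severs actin filaments and has a secreted plasma form, had the highest level of the 34, at 879 ± 437 TPM in praliciguat and 686 ± 97.4 TPM in placebo (mean ± SD, n = 4 each). In CPM it had 1219, 636, 1939 and 1066 CPM in praliciguat replicates 1 to 4, against 831, 899.5, 1083 and 916 CPM in placebo replicates 1 to 4. Praliciguat replicate 2 was below and replicates 1 and 3 above all placebo libraries, and the log2 fold change was 0.38 ± 0.29. C3, the central complement component, had 92.1, 53.5, 181 and 79.9 CPM in praliciguat replicates 1 to 4, against 65.1, 39.7, 97.5 and 48.7 CPM in placebo replicates 1 to 4. Its log2 fold change of 0.70 ± 0.40 (95% interval -0.21 to 1.61, edgeR adjusted p = 0.965) was the second highest of the 34. Serping1, the inhibitor of complement C1, had 88.2, 65.03, 221 and 96.04 CPM in the 4 praliciguat libraries and 85.5, 78.3, 115 and 73.03 CPM in the 4 placebo libraries, and only praliciguat replicate 3 stood above all placebo libraries.

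Igfbp4 and Igfbp6, which bind insulin-like growth factors, gave log2 fold changes of 0.025 ± 0.28 and -0.34 ± 0.31. Igfbp4 ranged 2.55-fold within praliciguat and 1.497-fold within placebo. Igfbp6 had 26.05, 14.5, 47.96 and 32.3 CPM in the 4 praliciguat libraries and 47.3, 34.5, 37.5 and 33.5 CPM in the 4 placebo libraries, with praliciguat replicates 1, 2 and 4 below all placebo libraries. Clec3b, or tetranectin, which binds plasminogen, had 22.8, 14.3, 56.8 and 37.2 CPM in the 4 praliciguat libraries and 36.4, 28.1, 29.9 and 27.4 CPM in the 4 placebo libraries. All 6 genes of this role were highest in praliciguat replicate 3, 5 of 6 had log2 fold changes above 0, and 0 of 6 passed the test.

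Each sample title ends in a number whose meaning the labels do not explain. The numbers form a lower run, with 2 praliciguat and 2 placebo libraries, and an upper run with as many. Praliciguat replicates 1 and 2 and placebo replicates 1 and 2 are of the lower run, and replicates 3 and 4 of both groups are of the upper run. Within the lower run, the difference of mean log2 CPM, praliciguat minus placebo, was below 0 for 30 of 34 genes, against 51.3% of all genes, with a median of -0.62. Within the upper run it was above 0 for 31 of 34, against 51.6%, with a median of 0.55. Both held for 28 of 34, against 31.1% of all genes. Each of these values sets 2 libraries against 2 and has no test of its own. Praliciguat replicate 2, the lowest library for 27 of 34, is of the lower run. Praliciguat replicate 3, the highest for 33 of 34, is of the upper run. The counts by run thus in part restate that order and are not a separate result.

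The differences for Pdgfra were -0.54 within the lower run and 0.48 within the upper run, and those for Dcn -0.63 within the lower run and 0.22 within the upper run. For Cilp they were -3.63 within the lower run and 1.21 within the upper run, and for Mfap4 -3.76 within the lower run and 0.82 within the upper run. Ccdc80 and C3 were above 0 in both runs, at 0.47 within the lower run and 1.27 within the upper run for Ccdc80 and 0.46 within the lower run and 0.80 within the upper run for C3. In an edgeR test of the difference between the runs, the interaction of group and run, chosen after the data had been seen, 0 of 34 passed an adjusted p under 0.05, against 0.0147% of all genes. At an unadjusted p under 0.05 it marked 11 of 34, against 16.3% of all genes. The smallest edgeR p was 0.00135 for Fbln2 (adjusted p = 0.165), whose differences were -0.50 within the lower run and 0.32 within the upper run. With the run as a block in the edgeR fit, 16 of 34 log2 fold changes were below 0 and 0 of 34 passed.

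**Figure D4:**
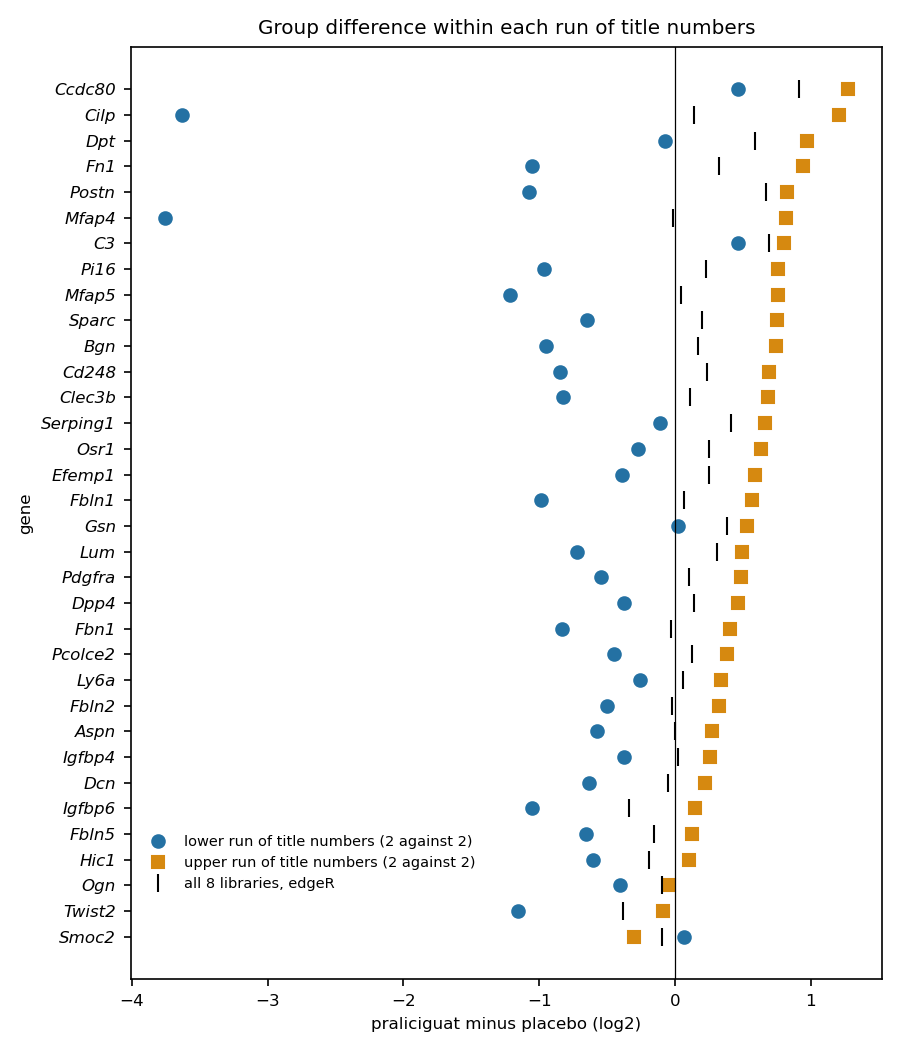
For each of the 34 fibroblast genes, circles give the difference of mean log2 CPM, praliciguat minus placebo, within the lower run of title numbers, squares the same within the upper run (2 libraries against 2 in each), and bars edgeR's log2 fold change over all 8 libraries. Circles lie left of 0 for 30 genes and squares right of 0 for 31, with Cilp and Mfap4 farthest to the left.

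Other genes of these cells and of the matrix were read from lists drawn up by known function, and 0 genes of any list passed edgeR's test. Of 12 interstitial collagen genes, which these cells also make, 6 were above 0 and 6 below, with a median log2 fold change of 0.074. Col3a1 and Col14a1 gave 0.78 ± 0.67 and 0.90 ± 0.67. Praliciguat replicate 3 was highest for 11 of 12 collagens and praliciguat replicate 2 lowest for 11 of 12, and the SD was larger in praliciguat for 12 of 12. Of 35 tested further genes reported for fibro-adipogenic progenitors, 18 were above 0, with a median of 0.010. The shared order of libraries was weaker among them. Praliciguat replicate 3 was highest for 20 (57.1%, against 97.1% of the 34) and praliciguat replicate 2 lowest for 14 (40%, against 79.4%). The SD was larger in praliciguat for 28 of 35, with medians of 0.518 in praliciguat and 0.281 in placebo. The homeobox gene Meox1 gave -0.99 ± 0.36 and Creb5 -0.52 ± 0.19. Tcf21, on the same list, was at 0 in all 8 libraries.

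Of 14 myofibroblast genes, 8 were above 0 with a median of 0.071. Cthrc1, a marker of activated fibroblasts, gave 2.36 ± 1.18, and -0.46 without praliciguat replicate 3, and Tnc, or tenascin-C, gave -1.23 ± 0.68. Of 20 tested genes of PDGF and TGF-β signalling, 10 were above 0 with a median of -0.0079. Among them the ligand gene Pdgfb had 24.8, 26.4, 24.7 and 23.2 CPM in praliciguat replicates 1 to 4, against 39.8, 26.03, 30.8 and 33.2 CPM in placebo replicates 1 to 4. Its log2 fold change was -0.39 ± 0.13 (edgeR adjusted p = 0.566), and Smad3, a transducer of TGF-β signals, gave 0.60 ± 0.20 (edgeR adjusted p = 0.602). Ccn2, listed too, had no row under that symbol. Of 10 genes of fat cell differentiation, a fate of these progenitors, 10 were above 0 with a median of 0.80, and Cfd, or adipsin, and Fabp4 gave 1.37 ± 0.62 and 0.55 ± 0.28. Their summed level was 2530.3 to 6261 TPM in praliciguat and 2141 to 4379 TPM in placebo.

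Markers of other cells ranked the libraries in different ways. Of 12 macrophage genes 11 were tested, and 11 of 11 were highest in praliciguat replicate 3, with Cd68 at 1.02 ± 0.73 and Lyz2 at 1.04 ± 0.76. Relative to the placebo mean, their median log2 difference was -0.26, -0.93, 2.16 and 0.28 in praliciguat replicates 1 to 4, against -0.13, -0.58, 0.88 and -0.26 in placebo replicates 1 to 4. Their summed level was 123 to 1482 TPM in praliciguat and 173 to 489.9 TPM in placebo, and none of the 12 was at 0 in all libraries. The order of the libraries for macrophage genes thus resembled that for the fibroblast genes, and the part of macrophages, which also express Fn1 and C3, was not tested. Of 7 tendon cell genes 7 were below 0, with a median of -0.86, a median of -3.38 within the lower run and a summed level of 36.3 to 326 TPM in praliciguat and 210.2 to 339 TPM in placebo. Thbs4 and Scx gave -0.86 ± 0.50 and -0.44 ± 0.25. Tendon cells make Dcn as well, and the part of tendon in the samples was not tested.

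Of 11 endothelial genes 11 were below 0, with a median of -0.32 and sums of 313 to 464 TPM in praliciguat and 455 to 580.5 TPM in placebo, and Ptprb and Tie1 gave -0.46 ± 0.11 and -0.45 ± 0.12. Praliciguat replicate 3 was highest for 0 of these 11 and for 0 of the 12 muscle fibre genes, of which 9 were above 0. Within that list Myh2 and Myh1, fast myosin heavy chains, gave -1.56 ± 0.22 (edgeR adjusted p = 0.0776) and -0.46 ± 0.20. Of 10 smooth muscle and pericyte genes 2 were above 0, with sums of 2717 to 3062 TPM in praliciguat and 2914 to 3081 TPM in placebo, and Kcnj8 and Rgs5 gave -0.32 ± 0.12 and -0.29 ± 0.16. Of 9 muscle stem cell genes 2 were above 0, with sums of 139 to 163 TPM in praliciguat and 133 to 168 TPM in placebo, and Myod1 and Heyl gave 0.69 ± 0.18 and -0.49 ± 0.13. Of 7 Schwann cell genes 7 were below 0, with sums of 95.9 to 189.7 TPM in praliciguat and 152 to 337 TPM in placebo, and Pmp22 gave -0.35 ± 0.19. DESeq2 called 3 of the genes named from these lists, with adjusted p of 0.0465 for Ptprb, 0.0440 for Myod1 and 1.78e-09 for Myh2.

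Markers of skin, blood and the serosa were read in the same way. Of 6 keratinocyte genes 2 were tested, with a sum over the list of 6.92 to 10.4 TPM in praliciguat and 6.95 to 12.4 TPM in placebo, and Krt10 and Trp63 gave -0.28 ± 0.25 and -0.16 ± 0.24. The 5 red blood cell genes summed to 634 to 1534 TPM in praliciguat and 669 to 1776 TPM in placebo, and Hbb-bt and Hba-a2, whose near-identical copies share reads, gave -0.35 ± 0.38 and -0.23 ± 0.33. Of 5 mesothelial genes 2 were tested, with a sum over the list of 0.42 to 1.98 TPM in praliciguat and 1.07 to 2.62 TPM in placebo. Wt1 was at 0 in all 8 libraries, and Msln and Krt19 gave -0.99 ± 0.42 and -0.98 ± 0.57. Over the 8 libraries Msln ran from 0.142 to 0.993 CPM and Krt19 from 0.142 to 1.07 CPM, so both rest on few reads. Praliciguat replicate 3 was highest for 0 of the tested genes in each of these 3 lists.

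**Figure D5:**
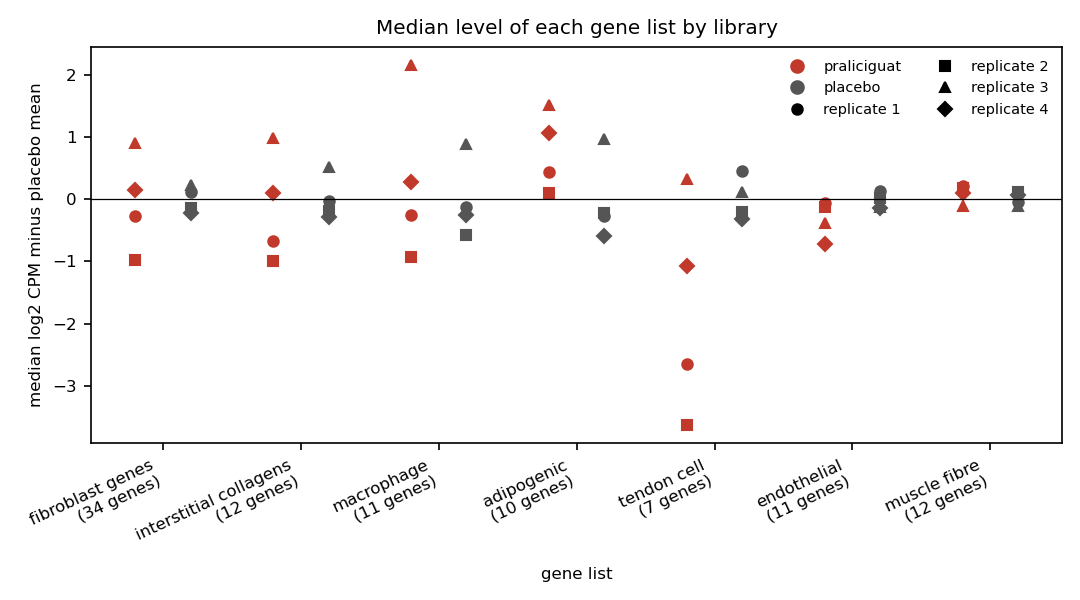
For each gene list (horizontal axis, with the number of genes tested), points give the median over its genes of log2 CPM minus the placebo mean, in the 4 praliciguat libraries (red) and the 4 placebo libraries (grey), with marker shape giving the replicate. The fibroblast, collagen and macrophage lists have praliciguat replicate 3 on top and praliciguat replicate 2 at the bottom, at 0.90 and -0.97 for the fibroblast genes, whereas the endothelial and muscle fibre lists do not.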

How the data were processed

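Per the labels' protocols, RNA was taken from snap-frozen, homogenised muscle with Tri Reagent and made into libraries with a KAPA stranded mRNA kit. STAR 2.5.3a, RSEM 1.2.28, Trimmomatic, FastQC and the build mm10 are listed, without their roles, in the submitters' processing notes. Whether counting used the strand is not given in the sources used. Per the file headers, the expected count deposited by the authors is RSEM's estimated number of reads per gene, with shared reads divided by a model, and the deposited TPM is its length-corrected level. The expected counts of all 34 genes were whole in all 8 libraries (tolerance 0.001). Deposited FPKM values were not used.

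Rounded expected counts were the input of edgeR 4.0.16 under R 4.3.3 (TMM scaling after filterByExpr, quasi-likelihood F test with robust dispersion, two-sided, Benjamini-Hochberg over 13569 genes, threshold 0.05). Log2 CPM used a prior count of 2, except in the heat map, which used none. Intervals are 95% intervals of that fit. Alternatives were DESeq2 1.42.0, limma 3.58.1 (voom, and log2 TPM with pseudocounts of 1 and 0.1), other scalings and filters, the run of title numbers as a block, and libraries left out. Leaving out praliciguat replicates 2 and 3 together, the spread with a library left out or in TPM, and the interaction of group and run were added after the data had been seen. The counts by order of the libraries were not planned in advance either. No 2 libraries agreed within sampling noise (chi-square of 21.9 to 136 per degree of freedom within groups). Tested on simulated counts of 13419 genes, the fit found 60 of 99 genes given a log2 change of 1 (60.6%), 84 of 97 given one of 2 (86.6%), and 8 that were unchanged. The simulation drew genes independently and gave each gene the same dispersion in both groups. The fibroblast genes spread more in praliciguat and moved together by library, so these shares need not apply to them.

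Groups came from the labels, and replicates were numbered in accession order. All 34 genes are named, and of every other list the 2 genes of lowest p, except 1 gene that is not reported here. The 34 genes and the lists were chosen with earlier results of these data known. Levels are compared between genes in TPM only. Counting error alone puts a gene at 0 counts below 0.0941 to 0.142 CPM, from 3 counts per library.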

Additional observations from a re-analysis of the deposited data

Results flagged for a closer look

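In 68 groups of 4 libraries, the CPM of each fibroblast gene in praliciguat and in placebo, 6 held a library whose gap to its nearest neighbour was larger, relative to the group's range, than Dixon's 95% critical value. Chance marks about 1 in 20 such groups, and the 68 share the same 8 libraries. In praliciguat, replicate 3 stood apart for Twist2 at 3.12 CPM, for Lum at 119.6 CPM, for Fbln5 at 44.5 CPM and for Postn at 187 CPM. In placebo, replicate 3 stood apart for Lum at 58.6 CPM and for Ccdc80 at 144 CPM. In all 6 the library that stood apart was the highest of its group.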

How the results depend on the processing

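Scaling with DESeq2's size factors or upper quartiles, other count filters and the fit without robust dispersion kept the number of genes called at 0 and changed the sign of no named gene. Of all genes, DESeq2 called 15 higher and 114 lower, limma-voom 2 lower, the fit with the run of title numbers as a block 3 lower, and edgeR at an adjusted p under 0.1 11 lower. Without praliciguat replicates 3 and 4, 6 genes were higher and 79 lower, and with 1 library left out 0 to 5 were lower, 5 without placebo replicate 3. None of these calls was of a fibroblast gene. Fibroblast genes below 0 numbered 23 with limma-voom, against 46.8% of all genes, and 16 with the block, against 47%. They numbered 24 with limma on log2(TPM + 1) and on log2(TPM + 0.1), where 56.9% and 57.7% of all genes were below 0. They numbered 32 without praliciguat replicates 3 and 4, against 52.4% of all genes, and 21 without praliciguat replicates 2 and 3, against 49.1%. Within the lower run 30 were below 0, and within the upper run 3. With 1 library left out they numbered 4 to 30, against 44.6% to 49% of all genes. The median of the fibroblast genes was -0.66 without praliciguat replicates 3 and 4 and -0.62 within the lower run. Fibroblast genes without overlap numbered 0 to 5 with 1 library left out. The 5, found without praliciguat replicate 3, were Twist2, Dcn, Aspn, Fbln5 and Igfbp6, against 9.55% of all genes, and the 1 without placebo replicate 3 was Ccdc80, against 7.01%. At an unadjusted p under 0.05, edgeR marked 18 of 34 without praliciguat replicates 3 and 4 (smallest adjusted p = 0.0535, Aspn) against 14.5% of all genes, and 6 without praliciguat replicate 3 against 9.25%. Both fits drop the library that was highest for 33 of 34 and keep the placebo libraries of both runs. A shift toward lower values was thus built into them, and no conclusion is drawn from these counts.

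Signs reversed in single genes, none of which had passed the test. The log2 fold changes of the opposite sign were, with limma-voom, Pdgfra -0.013, Pi16 -0.11, Cd248 -0.029, Lum -0.10, Bgn -0.12, Aspn -0.15, Mfap5 -0.21, Fbln1 -0.12, Fn1 -0.077, Postn -0.11, Cilp -1.16, Igfbp4 -0.067 and Clec3b -0.053. With limma on log2(TPM + 1), they were Pdgfra -0.048, Pi16 -0.13, Cd248 -0.084, Lum -0.14, Bgn -0.14, Aspn -0.18, Mfap5 -0.25, Fbln1 -0.13, Fn1 -0.071, Postn -0.11, Cilp -1.03, Pcolce2 -0.051, Igfbp4 -0.10 and Clec3b -0.10. With limma on log2(TPM + 0.1), they were Pdgfra -0.071, Pi16 -0.14, Cd248 -0.11, Lum -0.15, Bgn -0.14, Aspn -0.19, Mfap5 -0.27, Fbln1 -0.19, Fn1 -0.10, Postn -0.14, Cilp -1.23, Pcolce2 -0.073, Igfbp4 -0.10 and Clec3b -0.11. With the block, they were Bgn -0.074, Aspn -0.10, Mfap5 -0.16, Fbln1 -0.17, Cilp -1.28 and Clec3b -0.030. With praliciguat replicates 3 and 4 left out, they were Pdgfra -0.50, Dpp4 -0.30, Pi16 -0.78, Ly6a -0.18, Cd248 -0.84, Osr1 -0.19, Lum -1.02, Bgn -0.95, Aspn -0.67, Mfap5 -1.01, Fbln1 -1.09, Efemp1 -0.40, Fn1 -0.66, Postn -0.84, Sparc -0.79, Smoc2 0.091, Dpt -0.29, Cilp -3.88, Ccdc80 -0.058, Pcolce2 -0.57, Igfbp4 -0.24, Serping1 -0.20, Clec3b -0.72, Gsn -0.0097, Col14a1 -0.53, Col3a1 -0.82, Cthrc1 -0.57, Cd68 -0.58 and Lyz2 -0.67. With praliciguat replicates 2 and 3 left out, an alternative chosen after the data had been seen, they were Pdgfra -0.10, Ly6a -0.029, Cd248 -0.065, Lum -0.52, Bgn -0.30, Aspn -0.34, Fbln1 -0.47, Postn -0.45, Cilp -0.47, Igfbp4 -0.16, Clec3b -0.017, Cthrc1 -0.10 and Lyz2 -0.10. The fits on log values average logs and the count fits average counts, and they differ here in that construction.

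With 1 library left out in turn, 27 of the 34 reversed at least once, and the ranges of those and of the other named genes that did were Pdgfra -0.30 to 0.31, Dpp4 -0.11 to 0.42, Pi16 -0.35 to 0.57, Ly6a -0.12 to 0.17, Cd248 -0.39 to 0.53, Osr1 -0.0029 to 0.42, Dcn -0.52 to 0.18, Lum -0.72 to 0.59, Bgn -0.50 to 0.42, Ogn -0.47 to 0.10, Aspn -0.48 to 0.20, Fbn1 -0.36 to 0.24, Mfap4 -1.40 to 0.38, Mfap5 -0.32 to 0.35, Fbln1 -0.69 to 0.33, Fbln2 -0.23 to 0.12, Fbln5 -0.57 to 0.011, Efemp1 -0.16 to 0.53, Fn1 -0.35 to 0.67, Postn -0.81 to 1.02, Sparc -0.20 to 0.47, Smoc2 -0.22 to 0.035, Cilp -0.99 to 0.53, Pcolce2 -0.24 to 0.39, Igfbp4 -0.30 to 0.19, Serping1 -0.082 to 0.62, Clec3b -0.30 to 0.36, Col14a1 -0.10 to 1.26, Col3a1 -0.26 to 1.14, Cthrc1 -0.46 to 2.75, Cd68 -0.20 to 1.39 and Lyz2 -0.36 to 1.40. The cause was not tested. No paired analysis was possible because replicate numbers follow accession order and the labels give the groups none in common. Past the threshold, none of them among the 34, came Ptprb, Myod1 and Myh2 with DESeq2, and Meox1, Tnc and Thbs4, all lower, without praliciguat replicates 3 and 4. No setting moved the median of all genes by over 0.1. Depth limits Mfap4, at 13 expected counts in praliciguat replicate 2, and Twist2, at 18 to 107 expected counts in praliciguat and 40 to 62 in placebo, and 4 libraries per group leave the intervals wide.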

Other observations

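The combined share of the 3 most abundant fibroblast genes varied less than the summed level of all 34. Because these genes make up most of that sum, this contrast is in large part built in. Gsn, Sparc and Dcn together made up 56.9% to 61.1% of the summed TPM of the 34 genes in praliciguat libraries and 55.5% to 59.9% in placebo libraries, while the sum itself varied 3.90-fold and 1.53-fold. Dcn alone took 12.5% to 14.8% in praliciguat and 15.8% to 18.4% in placebo. Pdgfra, the receptor, took 0.241% to 0.256% in praliciguat and 0.248% to 0.304% in placebo. Gsn took 24.9% to 35.4% in praliciguat and 21.6% to 27.8% in placebo, and Sparc took 10.97% to 22.4% in praliciguat and 13.4% to 21.2% in placebo. Cilp took 0.0991% to 1.78% in praliciguat and 0.644% to 1.87% in placebo, and Smoc2, whose level was steady, took 1.05% to 3.76% in praliciguat and 1.84% to 2.67% in placebo. These shares are parts of 1 sum, so a larger share of one gene lowers the others, and no test was made of them.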
